A study of Homo sapiens with 2 samples.

Results

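The genes described here are FOXM1, MYBL2 and 8 genes for the DREAM and MuvB complexes, LIN9, LIN37, LIN52, LIN54, E2F4, TFDP1, RBL1 and RBL2. They were taken by gene symbol, and all 10 of them were found among the 20235 named genes of the table, with 11 of its 33297 probe sets. AGS, the established cell line studied, was derived from an adenocarcinoma of the human stomach. One array came from cells exposed to LBH589 (panobinostat, an inhibitor of histone deacetylases) at 100 nM for 24 h, and the other from AGS cells whose treatment the labels give as none. For the untreated cells no vehicle or culture time is given in the sources used here. With 1 array per condition there is no replicate, no test and no error for any difference below, and a gene is called higher or lower only by size, at 2-fold or more.

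FOXM1 and MYBL2 (B-MYB) are transcription factors that switch on the genes of the G2 phase and mitosis. They do so on a scaffold called MuvB, built from LIN9, LIN37, LIN52, LIN54 and the histone-binding protein RBBP4. In resting cells the same scaffold is joined by the pocket protein p130 (gene RBL2) or p107 (RBL1) and by E2F4 or E2F5 with a DP partner such as TFDP1, and the whole, named DREAM, keeps cell cycle genes off. When cells enter the cycle the pocket proteins leave, B-MYB binds MuvB, and FOXM1 joins later, so MuvB serves a repressor and an activator in turn. The arrays read the mRNA of these genes and not the assembly of the complexes.

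Values are deposited intensities, which the file headers give as RMA at the gene level and the submitters' processing notes as MAS5. The median intensity over all probe sets was 4.84 on the control array and 4.77 on the LBH589 array. A background level of 4.36 was set from olfactory receptor probe sets, of which 95% of values lie below it. All 9 markers of the epithelial line, such as EPCAM and KRT8, were above background on both arrays. None of 4 endothelial markers was above it on either array. Of 6 fibroblast markers, 2 were above it on the control array and 1 on the LBH589 array, and of 7 immune markers 4 and 3 were, with LYZ at 706 and 451.

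After LBH589 both activators, FOXM1 and MYBL2, and the DP subunit TFDP1 had lower mRNA, while LIN37, a subunit needed for repression by DREAM, had more. Of the 10 members, 3 were at least 2-fold lower, 1 was at least 2-fold higher and 6 were within 2-fold. Of all 18769 detected genes, 4.86% were 2-fold lower and 4.90% were 2-fold higher. The members' median log2 ratio (LBH589 over control) was -0.43, and that of all detected genes was 0.00. The share was also taken over the 8460 genes whose brighter array lay in the members' range, from 9.55 to 193. There 9.21% were 2-fold lower and 8.77% were 2-fold higher. The 1 higher member of 10, LIN37, is thus close to the share of higher genes of like brightness.

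**Figure D1:**
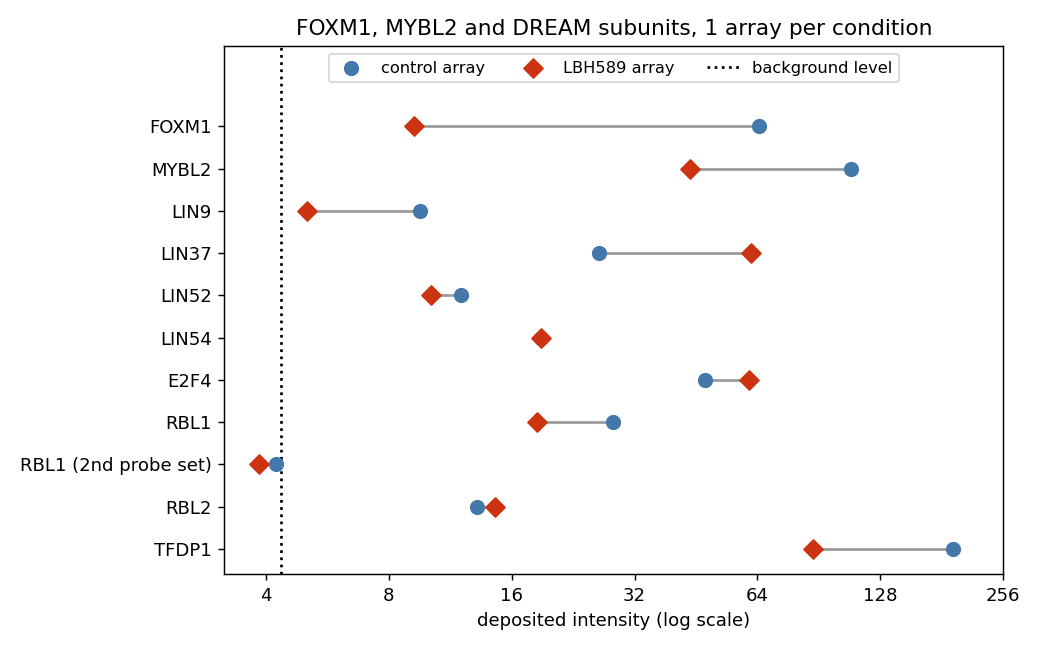
Deposited intensity (log scale) of each probe set of the 10 genes on the control array (blue circles) and the LBH589 array (red diamonds), with the background level as a dotted line; there is 1 array per condition and no error bar. FOXM1 spans the widest gap, from 64.5 to 9.23, LIN37 moves the other way from 26.1 to 61.7, and LIN54 has the same value on both arrays.

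FOXM1, the forkhead factor that drives mitotic genes, had an intensity of 64.5 on the control array and 9.23 on the LBH589 array. It was 6.99-fold lower after treatment, a log2 ratio of -2.81. Only 44 of the 18769 detected genes, FOXM1 included, had a ratio this low or lower, 0.234% of them. The signal after treatment was still above background.

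MYBL2, which binds MuvB once the pocket proteins have left, had 108 on the control array and 43.8 on the LBH589 array. It was 2.48-fold lower, with a log2 ratio of -1.31. That is a smaller decrease than that of FOXM1, and 2.78% of detected genes had a ratio as low. The signal of MYBL2 stayed far above background on both arrays.

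The 4 MuvB subunits did not move together. LIN37 had 26.1 on the control array and 61.7 on the LBH589 array, so it was 2.36-fold higher. It was the one member past 2-fold upward, and 3.10% of detected genes had a ratio as high. LIN9, which holds B-MYB in the complex together with LIN52, had 9.55 and 5.03 and was 1.90-fold lower, just short of 2-fold. Its signal after treatment was close to background.

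LIN52, the small subunit that carries the site phosphorylated by DYRK1A when DREAM assembles, had 12.0 on the control array and 10.2 on the LBH589 array. LIN54, the subunit that reads DNA at the CHR element of mitotic promoters, was listed at 18.9 on both arrays, identical to the last digit. Such exact equality occurred in 430 of the 33297 probe sets (1.29%). RBBP4, which completes MuvB and was not among the members, had 246 and 162 and was 1.52-fold lower.

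Of the pocket proteins, p107 (RBL1) had 28.3 on the control array and 18.5 on the LBH589 array by its brighter probe set, 1.53-fold lower. The other RBL1 probe set, at 4.22 and 3.85, was below background on both arrays. With the median over both probe sets the log2 ratio of RBL1 was -0.37 in place of -0.61. p130 (RBL2), the main pocket protein of DREAM in resting cells, had 13.1 and 14.5. RB1, the retinoblastoma protein that acts outside DREAM, had 52.7 and 86.1, 1.63-fold higher. None of these 3 genes passed 2-fold, and p107 and RB1 lay on opposite sides of 0.

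E2F4, the DNA-binding E2F of DREAM, had 47.7 on the control array and 61.1 on the LBH589 array, 1.28-fold higher. TFDP1, the DP partner that E2F factors need in order to bind DNA, had 193 and 87.6 and was 2.21-fold lower. Its paralogue TFDP2 went the other way, from 18.6 to 38.1, 2.05-fold higher. The difference between the log2 ratios of TFDP1 and TFDP2 was -2.18. E2F5, the relative that can replace E2F4 in DREAM, had 16.3 and 9.84, so E2F4 and E2F5 also lay on opposite sides of 0, with a difference of 1.09 between their log2 ratios.

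At the lower size of 1.5-fold, RBL1 and LIN9 joined FOXM1, MYBL2 and TFDP1 among the lower members, 5 of 10, where 10.5% of all detected genes were that much lower. LIN37 was still the one higher member, where 11.7% of all detected genes were that much higher. By log2 ratio the members ran from FOXM1 at -2.81 through MYBL2 at -1.31, TFDP1 at -1.14, LIN9 at -0.92, RBL1 at -0.61 and LIN52 at -0.24 to LIN54 at 0.00, RBL2 at 0.15, E2F4 at 0.36 and LIN37 at 1.24. No replicate spread exists to tell neighbours in this order apart. The olfactory receptor probe sets, near background, had an SD of 0.18 in log2 ratio. It exceeds the distance between MYBL2 and TFDP1 and that between LIN54 and RBL2. This SD runs across dim probe sets and is no replicate error of the members, so wider gaps are not thereby shown to be real.

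**Figure D2:**
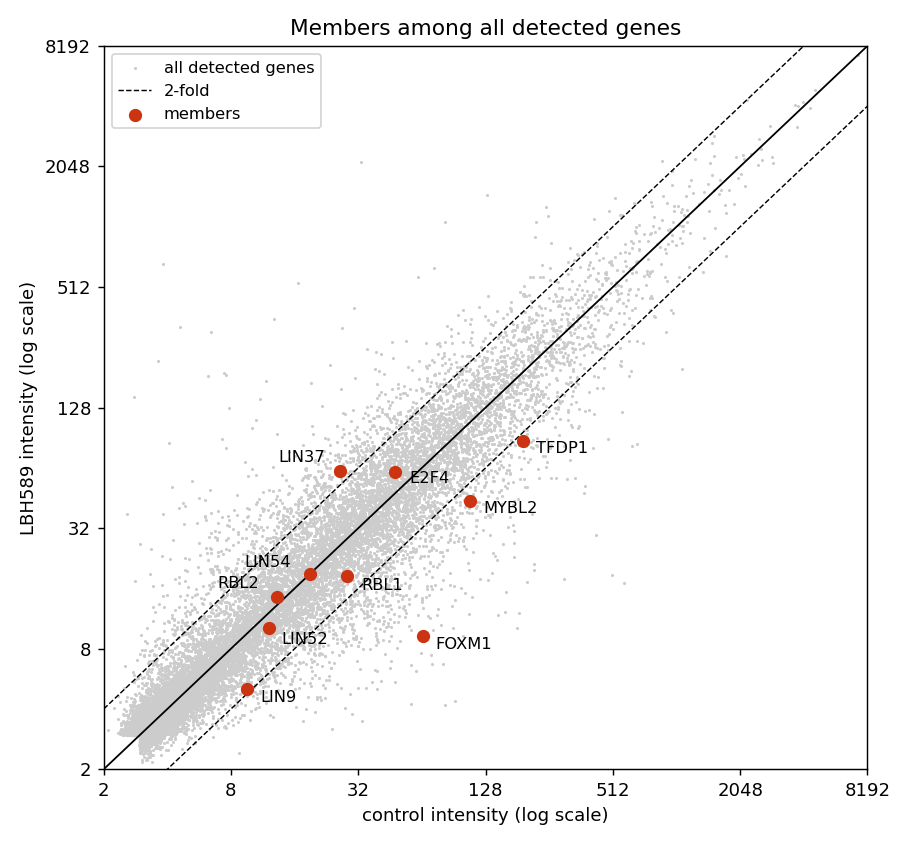
Intensity on the control array (horizontal, log scale) against the LBH589 array (vertical, log scale) for all detected genes (grey) and the 10 members (red), with equality as a solid line and 2-fold as dashed lines. FOXM1 lies far below the cloud, MYBL2 and TFDP1 lie just past the lower 2-fold line, LIN37 lies past the upper one, and LIN9 lies just inside the lower one.

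Under quantile normalization no call of a member changed. Centring could not change a call, because the median log2 ratio of all detected genes was already 0.00. With 50 added to every intensity, which exceeds the control intensity of 7 of the 10 members, no member reached 2-fold. The log2 ratio was then -0.95 for FOXM1, -0.76 for MYBL2, -0.82 for TFDP1 and 0.55 for LIN37. With intensities floored at 16, FOXM1 had a log2 ratio of -2.01, and LIN9, LIN52 and RBL2 were below the floor on both arrays.

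Promoters are shown for 3 of the members with lower signals, because MYBL2 and RBL1 are textbook targets of E2F and their own products take part in E2F control. RefSeq (GRCh38.p14) gave 14 promoters for 9 of the members, those other than FOXM1. Each was searched on both strands over the 250 bases before its start, for the 8-letter E2F sites TTTCCCGC, TTTGGCGC, TTTCGCGC and TTTGCCGC and for the shorter core GGCGGGA. These letters were chosen after the promoters had been read, and the core overlaps the first site when TTTCCCGC is followed by C. Capitals mark every match of either kind, read 5′ to 3′ on the strand of the gene.
MYBL2, chr20:43666864-43667113, plus strand: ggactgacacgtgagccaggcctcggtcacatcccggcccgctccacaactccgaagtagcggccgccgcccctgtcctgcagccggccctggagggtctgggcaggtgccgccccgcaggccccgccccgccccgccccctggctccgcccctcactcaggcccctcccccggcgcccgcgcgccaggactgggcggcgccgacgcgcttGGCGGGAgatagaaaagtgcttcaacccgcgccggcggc
RBL1, chr20:37095998-37096247, minus strand: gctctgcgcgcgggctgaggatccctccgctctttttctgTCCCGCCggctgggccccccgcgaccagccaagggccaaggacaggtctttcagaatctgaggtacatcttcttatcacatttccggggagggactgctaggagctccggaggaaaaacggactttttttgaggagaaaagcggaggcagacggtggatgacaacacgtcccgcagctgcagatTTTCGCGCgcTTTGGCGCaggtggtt
TFDP1, chr13:113584503-113584752, plus strand: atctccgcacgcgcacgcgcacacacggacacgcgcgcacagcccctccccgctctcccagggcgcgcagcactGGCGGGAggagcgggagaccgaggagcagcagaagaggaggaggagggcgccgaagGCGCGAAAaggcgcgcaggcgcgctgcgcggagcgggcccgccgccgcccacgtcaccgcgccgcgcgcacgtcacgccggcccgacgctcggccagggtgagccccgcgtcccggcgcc

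The RBL1 promoter holds a pair of E2F sites close to the start, TTTCGCGC and TTTGGCGC, which begin 26 and 16 bases before it. MYBL2 holds the core once, 39 bases before the start. An 8-letter site was found in 3 of the 14 member promoters, those of RBL1, TFDP1 and LIN52, and in 2.79% of the 35116 promoters of the RefSeq table. The core was found in 8 of the 14, at least 1 for each of the 9 members but E2F4 and RBL2, and in 13.5% of all promoters. The core was thus found for LIN37, which was higher, for LIN54, and for the 5 searched members with a log2 ratio below 0 (MYBL2, TFDP1, LIN9, RBL1 and LIN52). FOXM1 was not searched. Because the E2F letters were chosen after the promoters had been read, the member shares cannot be weighed against those of all promoters. They do not show that the members are richer in either E2F form. The CHR letters TTTGAA or TTCGAA were found in 4 of the 14, of LIN9, LIN37 and LIN54, and in 14.3% of all promoters. By gene that is 3 of 9 members and 17.2% of all genes with a promoter. The 2 promoters of LIN54 overlap and hold the same matches, so the promoter counts include these matches for both. The letters CCAAT, the binding site of NF-Y, were found in 3 of the 14, of LIN37, LIN52 and RBL2, and in 32.0% of all promoters. By gene the figures were 3 of 9 and 37.0%.

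Calls with and without these letters were then set side by side over all detected genes. Of 3610 detected genes with either E2F form in a promoter, 6.32% were 2-fold lower, and of 10035 without, 4.83% were. For the CHR letters the shares were 6.90% of 1985 genes and 4.94% of 11660. For CCAAT they lay the other way, at 4.98% of 5541 genes with the letters and 5.39% of 8104 without. The median log2 ratios with and without were -0.0031 and 0.0055 for E2F, -0.010 and 0.0073 for CHR, and 0.021 and -0.0053 for CCAAT. Genes with and without the letters were not matched for brightness, and shares 2-fold higher were not taken. A match of letters is a description and does not show that a factor was bound in these cells.

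Among relatives and partners of the members, 13 of 14 listed genes reached background on at least 1 array. Of the 14, 2 were 2-fold lower, 1 was 2-fold higher, and the median log2 ratio was -0.06. The lower ones are 14.3% of the list. Among all detected genes 4.86% were 2-fold lower and 4.90% higher, and in the members' brightness range 9.21% and 8.77%. E2F8, an E2F that binds DNA without a DP partner and represses, had 36.7 on the control array and 12.5 on the LBH589 array, 2.95-fold lower. E2F3, an activating E2F, had 29.7 and 12.8, 2.32-fold lower. E2F1, the best known activating E2F, had 18.6 and 17.5, so the activating E2F factors differed among themselves. E2F2 had 5.30 and 4.99, E2F6 had 23.0 and 30.5, and E2F7 had 23.6 and 24.9. DYRK1A, the kinase that starts DREAM assembly through LIN52, had 44.8 and 26.5 and was 1.69-fold lower. MYBL1, the relative of MYBL2 with a main role in male germ cells, had 7.75 and 10.8, and MYB had 5.95 and 6.99, both dim. TFDP3 was below background on both arrays.

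**Figure D3:**
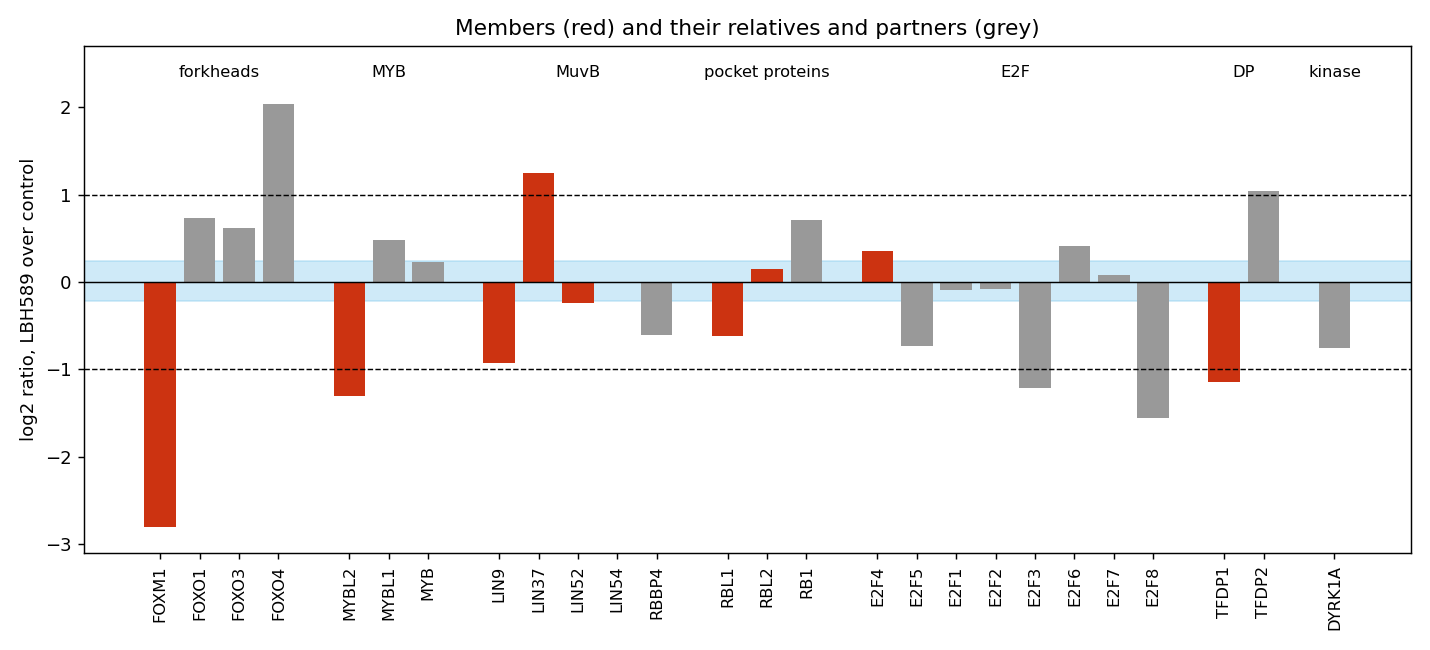
Log2 ratio of LBH589 over control (bars from 0) for the members (red) and their relatives and partners (grey), grouped by family; dashed lines mark 2-fold, and the blue band spans the quartiles of all detected genes, -0.21 to 0.24. FOXM1 and the FOXO factors lie on opposite sides of 0, as do TFDP1 and TFDP2, MYBL2 and MYBL1, and E2F4 and E2F5. The FOXO genes are the only other forkheads drawn and have the highest ratios of the 28 detected. Of those 28, 20 had a log2 ratio below 0.

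FOXM1 had the lowest ratio among the detected forkhead genes of the list. Of 28 other detected forkhead genes, 2 were 2-fold lower, 1 was 2-fold higher, and the median log2 ratio was -0.05. The share lower, 7.14%, stands beside 4.86% of all detected genes and 9.21% in the members' brightness range. FOXO4 was the higher one, with 12.1 on the control array and 49.8 on the LBH589 array, 4.11-fold. FOXO3, known as an antagonist of FOXM1 on shared targets, had 65.3 and 100.0, and FOXO1 had 27.9 and 46.4. These 2 FOXO genes were 1.53-fold and 1.66-fold higher and did not reach 2-fold. The dimmer probe set of FOXO3 had 5.77 and 8.33. Because FOXO3 has a near-identical copy in the genome, it is uncertain which of the 2 probe sets reads FOXO3 itself. FOXA1, a factor of epithelial cells, had 39.8 and 13.8, 2.88-fold lower. FOXQ1, another epithelial forkhead, had 129 and 54.3, a decrease of 2.37-fold.

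Upstream of these factors stand the cyclin-dependent kinases, which remove pocket proteins from DREAM and activate FOXM1 and B-MYB. Of 26 listed regulators 7 were 2-fold lower and none was 2-fold higher, with a median log2 ratio of -0.32. The share lower, 26.9%, stands beside 4.86% of all detected genes and 9.21% in the members' brightness range. Of these 7, 5 (PLK1, CCNA2, CDK1, CCNB1 and CENPF) also stand in the G2/M list described further on and are counted there again. The 26.9% therefore rests mainly on genes of that list, and CDK6 and CREBBP are the only others. PLK1, a mitotic kinase that phosphorylates FOXM1 and is also its target, had 141 and 23.3, 6.06-fold lower. CCNA2, the cyclin whose kinase relieves the self-inhibition of FOXM1, had 73.5 and 16.7. CDK6, a partner of D-type cyclins that phosphorylates pocket proteins, had 202 and 68.2, 2.97-fold lower, while its relative CDK4 had 113 and 78.9. CREBBP, an acetyltransferase and coactivator, had 62.5 and 22.8. The inhibitors CDKN1A (p21) and CDKN1B (p27), which hold pocket proteins in DREAM by blocking these kinases, had 54.5 and 53.6, and 47.6 and 34.1. Cyclins D1, D3 and E1, which act before S phase, were within 2-fold (CCND1 308 and 259, CCND3 51.2 and 58.0, CCNE1 56.3 and 69.0).

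The targets of these factors were followed in a pair of lists compiled from general knowledge of DREAM. One holds G2/M genes that MuvB, B-MYB and FOXM1 activate, and the other holds G1/S genes under E2F. Like the other lists, both were chosen with earlier results of these data known, so their shares are descriptive only. Of 70 G2/M genes, 35 were 2-fold lower, 1 was 2-fold higher and 63 had a negative log2 ratio. Their median was -1.02. The share lower, 50%, stands beside 4.86% of all detected genes and 9.21% in the members' brightness range. MKI67, the proliferation antigen Ki-67, was 7.57-fold lower (110 and 14.6). LMNB1, a nuclear lamin, was 5.41-fold lower (107 and 19.8), and KIF20A, a kinesin of cytokinesis, was 4.46-fold lower (53.9 and 12.1). CKS2, a small subunit of cyclin-dependent kinases, was the one higher gene, with 102 and 351.

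Of 55 G1/S genes, 10 were 2-fold lower and 2 were 2-fold higher, and their median was -0.31. The share lower, 18.2%, stands beside 4.86% of all detected genes and 9.21% in the members' brightness range. TYMS, thymidylate synthase, was 17.8-fold lower (181 and 10.2). GINS3, a subunit of the replicative helicase, was 2.43-fold lower (16.1 and 6.65). GINS4, a subunit of the same complex, was 4.71-fold higher (7.78 and 36.7). The G1/S genes CDC6, MCM6 and PCNA, read by E2F, had 134 and 151, 70.5 and 53.2, and 268 and 434. These genes lay within 2-fold on both sides of 0. The relatives MCM3 and MCM4 of MCM6 were at least 2-fold lower. MCM2, MCM5, MCM7 and MCM10 had negative log2 ratios within 2-fold, so no listed MCM gene lay above 0. Of the listed genes 10 stand in 2 lists, namely E2F1, E2F2, E2F8, CCNE1, CCNE2, PLK1, CCNA2, CCNB1, CDK1 and CENPF. Fewer cells in G2 and mitosis and less of these mRNAs per cell cannot be told apart in RNA from whole cultures.

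**Figure D4:**
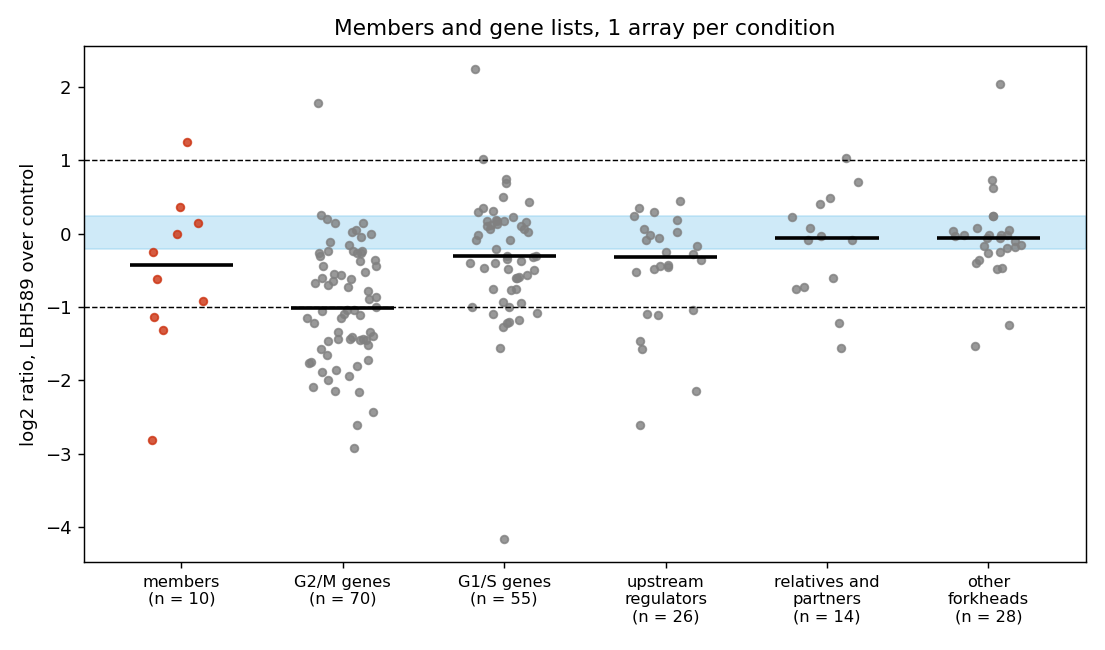
Log2 ratio of LBH589 over control for each gene (points, spread sideways only for visibility) of the members (red) and 5 lists (grey), with the median as a black bar; dashed lines mark 2-fold, and the blue band spans the quartiles of all detected genes. The G2/M genes have the lowest median, -1.02, against -0.31 for the G1/S genes and -0.43 for the members.

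By distance over the log2 intensities of both arrays, the genes most like FOXM1 were NSMAF at 0.077, TLR4 at 0.20 and TMEM62 at 0.21. They had 61.2 and 9.27, 72.4 and 9.97, and 57.0 and 9.95. The genes most like MYBL2 were PRR15 at 0.062, CCNG1 at 0.075 and FLJ23356 at 0.081, with 105 and 45.2, 111 and 41.8, and 109 and 41.4. With only 2 arrays, such likeness places genes at the same pair of levels and carries no more than that.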

How the data were processed

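The deposited table gives an intensity per probe set and array on a linear scale, made by the authors with gene-level RMA per the file headers, while the submitters' processing notes name MAS5. The fold column deposited by the authors matches LBH589 intensity divided by control intensity in all 33297 rows (relative tolerance 1e-06). The series matrix holds the same values in every row. The array design, the genome build and the versions of the software were not given in the sources used here. Probe sets with 1 gene symbol (21864) were named with RefSeq tables, 10 of the members' 11 by accession. A gene's brightest probe set was used. Percentile 20 of all intensities, 2.95, served as a floor for lower values, and genes that reached it on either array counted as detected. Background, 4.36, is percentile 95 of 450 olfactory receptor probe sets. The members, lists and tests were chosen with earlier results of these data known. Named genes are the members, their partners above background, up to 4 genes per other list with the largest ratios past 2-fold, the 3 genes nearest to FOXM1 and to MYBL2, and head-to-head neighbours; the other genes named were picked after their values were seen. Precision is limited by 1 array per condition. The calling step was tested on simulated data with shifts well past 2-fold planted in brighter genes. That test does not cover dim genes or changes near 2-fold. Alternatives were another probe set rule, quantile normalization, centring, other floors, 50 added and other fold sizes. Python 3.11.15, numpy 2.4.6, pandas 2.3.3 and matplotlib 3.10.9 were used.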

Additional observations from a re-analysis of the deposited data

How the results depend on the processing

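No paired analysis was possible because each condition has 1 array. With the median over probe sets, quantile normalization, no floor and a floor at background, counts and medians of the members and lists stayed close. They kept within 1.5 times, or within the olfactory receptor SD of 0.18 in log2 ratio. Centring and the series matrix values could not change them, because the median over detected genes was already 0.00 and the matrix values are identical. The log2 ratio of RBL1 was -0.37 with the median over probe sets. With a floor of 16 the 7 members left had a median of -0.61. Of partners 1 was 2-fold lower, as were 5 of 45 G1/S genes (median -0.088) and 618 of all 7780 genes then detected. With 50 added, 0 members were lower and 0 higher, and their median was -0.079. Then 0 partners were lower and 0 higher, as were 0 and 0 of the other forkheads. Of upstream regulators 2 were lower (median -0.11), of G2/M genes 5 (median -0.39), and of G1/S genes 1 was lower and 0 higher (median -0.10), and of all detected genes 146 and 134. At 1.5-fold, 5 members, 5 partners and 18 G1/S genes were lower, and 2 partners, 4 G1/S genes and 3 forkheads were higher. At that size 45 of 70 G2/M genes, 7 of 26 regulators and 2 forkheads were lower, and 1 member, 1 G2/M gene and 0 regulators were higher. Of all 18769 detected genes, 1977 were 1.5-fold lower and 2187 were 1.5-fold higher. At 3-fold, 1 member, 0 partners, 2 upstream regulators, 15 G2/M genes, 1 G1/S gene and 0 forkheads were lower. Higher by that size were 0 members, 0 partners, 0 upstream regulators, 1 G2/M gene, 1 G1/S gene and 1 forkhead. Of all 18769 detected genes, 326 were 3-fold lower and 270 were 3-fold higher. Apart from LIN54, whose ratio is 1, no member changed direction under any of these settings. The fold sizes and the added 50 move counts by their construction; the cause of the other changes was not tested.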

Other observations

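Genes next to the members were read as a further description, with the order taken from RefSeq. RHNO1, a DNA damage response gene that overlaps FOXM1 at one edge and is known to share a divergent promoter with it, had 18.3 on the control array and 8.98 on the LBH589 array. It was 2.04-fold lower, in the direction of FOXM1 but by less. ALDH6A1, a mitochondrial dehydrogenase that lies head to head with LIN52, had 30.3 and 70.2 and was 2.32-fold higher, while LIN52 had 12.0 and 10.2. COPS4, head to head with LIN54, had 24.1 and 26.4. The neighbours of TFDP1 and RBL1 that were past or close to 2-fold went one with and one against the member. SLC9D1 beside TFDP1 had 101 and 51.1, 1.97-fold lower. SAMHD1, a nucleotide hydrolase gene beside RBL1, had 77.1 and 164, 2.13-fold higher, where RBL1 was lower.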
